A study of Mus musculus with 8 samples.

Results

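Trem2 and 9 genes that mark lipid-associated macrophages were read in livers of mice with and without the TGF-beta type I receptor in myeloid cells. The 10 genes are Trem2, Gpnmb, Cd9, Colec12, Spp1, Mmp12, Lgals3, Lpl, Fabp5 and Atp6v0d2. They were taken by symbol, and all 10 were found among the 15283 genes of the bulk table and among the 22578 genes of the table of nuclei. The controls carry floxed Tgfbr1 alleles (flox/flox), and the Tgfbr1 MKO mice carry the same alleles together with LysMcre. A MASH diet was given to every mouse for 30 weeks, as a model of metabolic dysfunction-associated steatohepatitis. The sources used here give no strain, sex or age. LysMcre is a Cre recombinase at the Lyz2 locus, active in macrophages, monocytes and neutrophils, so the receptor is removed from more myeloid cells than those that express Trem2. Bulk RNA-seq of liver gave 3 libraries of each genotype, and single-nucleus RNA-seq used 1 pool of 3 liver samples of each genotype.

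Lipid-associated macrophages gather around lipid-laden and dying cells in obese fat and in steatotic liver, where they form crown-like structures. TREM2 is a surface receptor that binds lipids, lipoproteins and apoptotic cells. It signals through the adaptor TYROBP and the kinase SYK, and macrophages that lack it handle lipid poorly. The other genes cover the same cell state by role: GPNMB, CD9 and COLEC12 lie on the surface or in endosomal membranes, SPP1, MMP12 and galectin-3 are secreted, and LPL, FABP5 and ATP6V0D2 serve lipid uptake and the acid lysosome.

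The bulk libraries held 17448117 to 23986319 reads, recovered from the normalised read counts that the authors deposited. The first principal component (36.45% of the variance) separated the genotypes, and on the second the others lay between -23.0 and 4.67 while MKO 1 stood at 48.5. Tgfbr1 itself was read at 737 to 810 in the controls and at 560 to 857 in the MKO libraries, with overlapping groups. The sources used here do not name the floxed exon, and whole-gene reads from whole liver do not check the deletion. In macrophage-like nuclei the Tgfbr1 level was 13.5 for control and 4.87 for MKO. Cluster 2 of the nuclei is called macrophage-like because 17 of 17 general macrophage markers stood 2-fold or more above the mean of the other clusters there. Gpnmb and Mmp12 were among its 10 leading genes, so their place in that cluster is a description.

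In bulk liver Trem2 fell and Lgals3 rose in the MKO mice, and the other 8 genes did not pass the test. Gpnmb (adjusted p = 0.0501) and Mmp12 (adjusted p = 0.0719) lay nearest to the threshold. By limma on log2(value + 1), with Benjamini-Hochberg adjustment over all 15249 genes tested, 1 of the 10 genes was called lower and 1 higher at an adjusted p under 0.05. Over all genes 0.0853% were called lower and 2.96% higher (3.05% in all). On the recovered reads edgeR called the same 2 of the 10 genes, where it called 3.38% of all genes, and DESeq2 called Gpnmb and Mmp12 lower as well (1 higher and 3 lower), where it called 4.48% of all genes, 4.15% higher and 0.327% lower. The values of the groups did not overlap for 7 of the 10 genes, 5 of them lower and 2 higher, where 19.4% of all genes were apart (9.02% lower and 10.4% higher). The median log2 fold change of the 10 genes was -0.42, against -0.02 over all genes tested. Earlier results of these data were known when the 10 genes were chosen, so these counts describe them and support nothing. A whole-liver level does not tell fewer cells of a type from less RNA per cell.

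**Figure D1:**
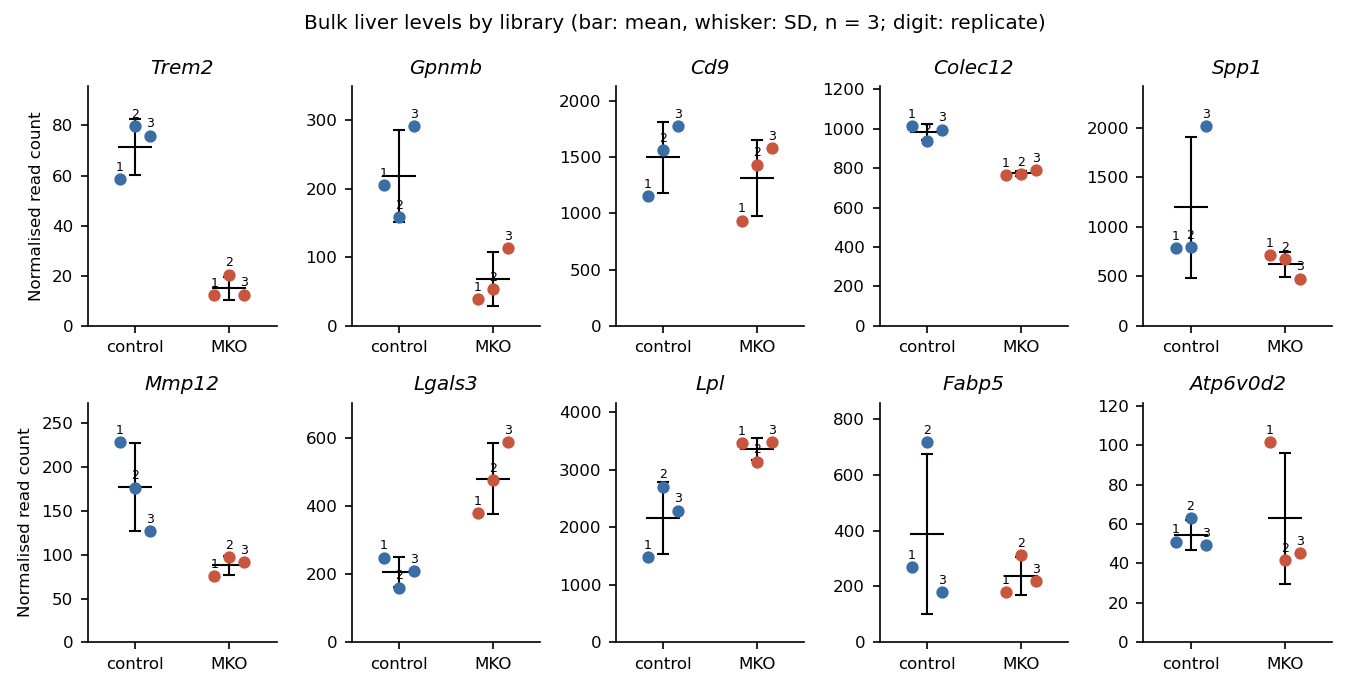
Normalised read counts (vertical axis, from 0, a scale of its own for each gene) of the 10 genes in 3 control and 3 MKO libraries; points are libraries, the digit is the replicate number, the bar is the mean and the whisker the SD. Trem2, Gpnmb, Mmp12, Spp1 and Colec12 lie lower and Lgals3 and Lpl higher in all 3 MKO libraries, and the values of Cd9, Fabp5 and Atp6v0d2 overlap.

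Trem2, the lipid receptor (chromosome 17, 48346401 to 48354147, + strand, GRCm38), gave 58.6, 79.8 and 75.9 normalised counts across the 3 controls, numbered 1 to 3, and 12.2, 20.4 and 12.5 across the 3 MKO libraries. Every MKO library lay far under the lowest control. The means were 71.4 ± 11.3 and 15.04 ± 4.64 (SD, n = 3 each), 4.75-fold lower in the MKO libraries, with a log2 fold change of -2.20 ± 0.29 (SE, with adjusted p = 0.00604 by limma). Trem2 stayed called in each of the 6 fits that left out 1 library, with log2 fold changes from -2.43 to -2.08 and limma adjusted p up to 0.0384. By p-value Trem2 ranked 110 among the 15249 genes tested, most of those ahead of it being higher in the MKO libraries.

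The windows around the start sites of Trem2, Gpnmb and Mmp12 are shown because these 3 genes had the most negative bulk values of the 10. RefSeq promoter windows (GRCm38.p6, 250 bases before the start site and the first 15 bases from it on, 5′ to 3′ on the gene's own strand) were found for 6 of the 10 genes, and the 3 printed here lie on the + strand. They were searched on both strands for CACGTG, an E-box, TCATGTGA, a motif of the MiT/TFE factors, TGANTCA, the AP-1 motif, GAGGAA, the core bound by PU.1, and GTCTAGAC, a palindrome bound by SMAD proteins. No 2 of these motifs contain one another. Capitals mark the matches.
Trem2, chr17:48346151-48346415: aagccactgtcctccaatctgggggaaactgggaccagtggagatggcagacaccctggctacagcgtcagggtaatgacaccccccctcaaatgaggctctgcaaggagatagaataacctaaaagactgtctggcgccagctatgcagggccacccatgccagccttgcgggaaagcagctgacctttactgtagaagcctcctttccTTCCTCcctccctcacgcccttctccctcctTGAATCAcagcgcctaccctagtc
Gpnmb, chr6:49036268-49036532: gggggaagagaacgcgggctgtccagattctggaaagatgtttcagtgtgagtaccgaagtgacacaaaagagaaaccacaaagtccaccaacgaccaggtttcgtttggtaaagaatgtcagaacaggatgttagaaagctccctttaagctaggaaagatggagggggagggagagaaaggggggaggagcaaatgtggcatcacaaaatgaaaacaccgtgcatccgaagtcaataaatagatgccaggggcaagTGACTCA
Mmp12, chr9:7344147-7344411: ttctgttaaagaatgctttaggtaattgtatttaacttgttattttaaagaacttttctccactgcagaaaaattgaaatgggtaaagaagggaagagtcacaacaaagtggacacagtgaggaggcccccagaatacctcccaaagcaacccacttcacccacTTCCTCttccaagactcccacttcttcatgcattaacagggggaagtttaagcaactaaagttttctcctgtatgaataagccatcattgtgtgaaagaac
The Trem2 window holds the AP-1 letters TGAATCA from 9 to 3 bases before the start site and the PU.1 core on the other strand from 40 to 35 bases before it. In Gpnmb the AP-1 letters TGACTCA lie 8 to 14 bases after the start site, and in Mmp12 the PU.1 core lies on the other strand 86 to 81 bases before it. Of all 32851 windows of this length 7.1% hold the AP-1 motif, as do 2 of the 6 searched here, and 24.6% hold the PU.1 core, as do 3 of the 6 (Trem2, Mmp12 and Spp1). CACGTG (6.46% of all windows), TCATGTGA (0.892%) and GTCTAGAC (0.183%) had no match in the 6. A match describes letters and shows no binding.

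Gpnmb encodes a transmembrane glycoprotein of lysosomes and the cell surface that lipid-laden macrophages make in large amounts (chromosome 6, 49036546 to 49070929, + strand). The controls gave 205, 159 and 292 normalised counts, and the MKO libraries gave 39.1, 54.0 and 114. The highest MKO library, MKO 3, stayed under the lowest control. The means of 218 ± 67.6 and 68.9 ± 39.5 (SD, n = 3 each) differed 3.17-fold, a log2 fold change of -1.75 ± 0.38 (SE) whose limma adjusted p of 0.0501 missed the threshold. Without MKO 3 the log2 fold change was -2.18 and limma called Gpnmb (adjusted p = 0.0269). DESeq2 on the recovered reads gave an adjusted p of 0.000514 and edgeR one of 0.0633, and the authors' deposited table lists 0.000398.

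Cd9, a tetraspanin of many cell types that organises membrane receptors (chromosome 6, 125460266 to 125494791, - strand), gave 1154, 1559 and 1776 across the controls against 934, 1433 and 1579 across MKO libraries. The groups overlapped, with a log2 fold change of -0.20 ± 0.22 (SE, with adjusted p = 0.798 by limma) that became 0.03 without MKO 1. Colec12, a scavenger receptor with a collagen stalk and a lectin domain (chromosome 18, 9707595 to 9882644, + strand), gave 1013, 937 and 994 in the controls and 763, 769 and 788 in the MKO libraries. These groups were tight and apart. The difference was small, from 982 ± 39.4 to 773 ± 13.03 (SD, n = 3 each), with a log2 fold change of -0.34 ± 0.10 (SE, with adjusted p = 0.146 by limma). The authors' deposited table gives Colec12 an adjusted p of 0.00673.

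Among the secreted proteins, Mmp12 encodes the macrophage elastase, which cuts elastin and other matrix proteins (chromosome 9, 7344381 to 7369499, + strand). Its controls gave 228, 176 and 127, and its MKO libraries 75.7, 96.9 and 91.5. Control 3 came nearest to the MKO libraries, and no value overlapped. The fold difference was 2.01, with a log2 fold change of -0.97 ± 0.23 (SE, with adjusted p = 0.0719 by limma). Without control 3 it was -1.19 and limma called Mmp12 (adjusted p = 0.0342), and with all libraries DESeq2 called it (0.00767) while edgeR did not (0.0628). The authors' deposited table gives Mmp12 an adjusted p of 0.0971.

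Spp1 encodes osteopontin, a secreted ligand of integrins and CD44 that bile duct cells make as well as macrophages (chromosome 5, 104435118 to 104441050, + strand). Its counts were 782, 794 and 2016 in the controls and 710, 673 and 477 in the MKO libraries. The highest MKO library lay just under the lowest control, and control 3 alone was more than double the rest. The log2 fold change was -0.82 ± 0.35 (SE, with adjusted p = 0.395 by limma), and without control 3 it was -0.37. Of 10 bile duct markers other than Spp1, 8 were highest in the same library, Sox9 and Anxa4 being the exceptions. Epcam stood at 168 in control 3 and at 28.2 to 56.1 elsewhere, and Krt7 at 44.3 against 11.5 to 21.97. Of these 10 markers 0 had a positive log2 fold change and 0 were called by limma or edgeR, 1 at an unadjusted p under 0.05 and 1 by DESeq2. Their summed level was 2280 to 2960 in the controls and 1975 to 2117 in the MKO libraries. The part of bile duct RNA in the Spp1 difference was not tested.

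Lgals3 encodes galectin-3, a lectin that binds galactosides and marks damaged lysosomes (chromosome 14, 47367751 to 47386160, + strand). It went the other way, with 249, 161 and 208 in the controls and 378, 475 and 586 in the MKO libraries. Every MKO library exceeded every control, 2.33-fold on average, and the log2 fold change was 1.22 ± 0.21 (SE, with adjusted p = 0.017 by limma). The call was lost when control 2 (adjusted p = 0.0646), control 3 (0.0507), MKO 2 (0.0818) or MKO 3 (0.0729) was left out of the limma fit, with log2 fold changes from 1.05 to 1.24.

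Lpl encodes lipoprotein lipase, which frees fatty acids from lipoproteins (chromosome 8, 68880491 to 68907448, + strand). Its controls gave 1485, 2705 and 2287, against 3460, 3137 and 3473 for the MKO libraries. All MKO libraries were above all controls, with a log2 fold change of 0.68 ± 0.20 (SE) that did not pass (limma adjusted p = 0.166).

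Fabp5, a carrier of fatty acids in the cytosol (chromosome 3, 10012548 to 10016607, + strand), gave 268, 715 and 180 across the controls against 179, 312 and 219 across MKO libraries. Control 2 was the one high library. The log2 fold change of -0.50 ± 0.45 (SE, with adjusted p = 0.737 by limma) became 0.07 without it. Atp6v0d2, a subunit of the proton pump of lysosomes and osteoclasts (chromosome 4, 19876841 to 19922605, - strand), gave 51.0, 63.0 and 49.3 across the controls against 101, 41.8 and 45.3 across MKO libraries. MKO 1 was the highest of the 6 and the other MKO libraries were the lowest, so the log2 fold change of 0.09 ± 0.34 (SE, with adjusted p = 0.95 by limma) turned to -0.31 without MKO 1.

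Per kilobase of exon (GENCODE M21, all exons of a gene merged), Cd9 had the highest bulk level of the 10 in the controls at 732 ± 154 normalised counts per kilobase (SD, n = 3) and Trem2 the lowest at 14.4 ± 2.28. The control order was Cd9, Spp1 (726.5), Lpl (206), Colec12 (112.5), Lgals3 (111), Fabp5 (109), Gpnmb (33.5), Mmp12 (24.5), Atp6v0d2 (20.0) and Trem2. Neighbours whose libraries overlapped were Cd9 and Spp1, then Colec12, Lgals3 and Fabp5, and then Gpnmb, Mmp12 and Atp6v0d2. In the MKO libraries Lgals3 stood at 258 per kilobase, ahead of Colec12 (88.6). Gpnmb (10.6) stood behind Atp6v0d2 (23.1) and Mmp12 (12.2) on average, and its libraries overlapped those of both. Trem2 was lowest again, at 3.04 ± 0.938. The merged exons span 4946 bases for Trem2 and 2716 for Atp6v0d2. Merged exons can be longer than any 1 transcript, so the order depends on the annotation.

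General macrophage genes rose in the same libraries. Of 17 such genes 13 rose and 0 fell by limma, with a median log2 fold change of 1.499, and their summed level was 6284 to 10757 in the controls and 15369 to 24795 in the MKO libraries. Some markers of Kupffer cells and of other immune cells rose as well, where 2.96% of all genes were called higher. By limma 4 of 12 Kupffer cell genes rose (median log2 fold change 1.45), as did 4 of 13 T and NK cell genes (median 1.29). Of 12 dendritic cell genes 4 rose (median 0.77), Batf3 (2.75), Clec9a (1.29) and Itgax (1.44) among them, and 0 fell in these 3 lists. Of 6 neutrophil genes 1 rose (median 0.45). Of 10 B and plasma cell genes (median 0.40) and 8 plasmacytoid dendritic cell genes (median 0.03) limma called 0. In the B and plasma list 7 were above 0, while Ighm (-1.89), Igkc (-1.94) and Jchain (-2.72) were below. The part of Kupffer, T, NK and dendritic cells in the rises of Lgals3, Syk, Vav1, Itgax, Cd53 and Cd37 was not tested. The mean log2 level of 16 of the general macrophage genes, without Lyz2 as the Cre locus, was 8.48, 8.34 and 7.82 for the controls against 9.34, 9.84 and 10.06 for the MKO libraries. This index was 1.53 higher in the MKO libraries, so a gene whose bulk level stayed the same would lie 1.53 lower relative to it.

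Relative to that index Trem2 was at -2.59, -2.01 and -1.55 in the controls and at -5.62, -5.42 and -6.31 in the MKO libraries on the log2 scale. The difference of -3.73 was the most negative of the 10 genes, and Gpnmb (-3.28), Mmp12 (-2.50), Spp1 (-2.35), Fabp5 (-2.03), Colec12 (-1.88) and Cd9 (-1.73) followed. For these 7 genes no MKO library overlapped a control (exact permutation p = 0.1, two-sided, the smallest that 3 against 3 allows, and 0.143 after Benjamini-Hochberg adjustment over the 10 genes). Atp6v0d2 (-1.44) and Lpl (-0.86) had an exact permutation p of 0.2. Lgals3 differed least, by -0.32 (exact permutation p = 0.4): its controls lay from -1.01 to -0.11 and its MKO libraries from -0.95 to -0.77. This permutation test cannot pass 0.05 with 3 libraries a group. The index itself did not overlap between the groups, so a gene with a level bulk value can be apart relative to it for that reason alone. Cd9 and Fabp5, whose bulk values overlapped, are among the 7. The share of all genes that lie apart relative to the index was not computed, so the 7 are a description.

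In macrophage-like nuclei 7 of the 10 genes were 2-fold or more lower in the MKO pool. All 10 had the lower value there, Lpl by only 1.009-fold. The share of all genes lower by any amount was not computed. With 1 pool a genotype there is no test and no replicate check. The log2 ratios add a pseudocount of 0.144, which is 1/10 of the level that 1 in 10 detected genes reaches in this cluster (1.44). Of 9525 genes at or above the median detected level of the cluster, a floor chosen after seeing the data so that it takes in all 10 genes, 2.57% were 2-fold or more lower and 2.08% higher. The median log2 ratio was -1.46 for the 10 genes and -0.03 for those 9525. At the planned floor of 1.44, which 6 of the 10 genes reached, 4.72% of 1905 genes were 2-fold or more lower and 5.04% higher.

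Gpnmb went from 6.14 in the control pool to 1.18 in the MKO pool, a log2 ratio of -2.24. Colec12 went from 3.99 to 0.747 (-2.22), Atp6v0d2 from 2.69 to 0.730 (-1.70) and Mmp12 from 3.52 to 1.03 (-1.65). Trem2 went from 0.809 to 0.0829, 9.76-fold lower without a pseudocount and a log2 ratio of -2.07 with it. Trem2 stayed under the planned floor, as did Cd9 (1.19 to 0.409, -1.28), Spp1 (1.13 to 0.452, -1.10) and Fabp5 (0.369 to 0.238, -0.42). The lectin and the lipase were nearly level: Lgals3 went from 3.05 to 2.39 (-0.33) and Lpl from 3.30 to 3.27 (-0.01). In bulk liver the values of these 2 genes lay above the controls in all 3 MKO libraries, and only Lgals3 passed the test there.

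General macrophage genes in the same nuclei had a median log2 ratio of 0.52 over the 14 that reached the floor. Csf1r was at 4.02 and 4.36 and Fcer1g at 3.15 and 8.24 in the control and MKO pools. Lyz2, whose locus carries the Cre in the MKO mice, went the other way, at 6.58 and 2.65. Monocyte markers were also lower in the MKO pool for Cx3cr1, a chemokine receptor (1.32 and 0.192), Ccr2, another (1.39 and 0.343), F13a1 (1.196 and 0.350) and Fn1 (2.22 and 0.931), and higher for Itgam (1.59 and 2.26). Their part in the ratios of the 10 genes was not tested. In bulk liver Cx3cr1 fell from 69.2 ± 12.9 to 11.8 ± 5.11 (SD, n = 3 each), with a log2 fold change of -2.52 and a limma adjusted p of 0.00691, while Ccr2 (0.10), F13a1 (-0.23) and Fn1 (-0.08) were not called. Of 12 monocyte markers 3 rose and 1 fell by limma. The 12 hepatocyte markers summed to 59.0 and 83.1 in these nuclei, with Alb alone at 27.3 and 39.6. They went both ways, Cps1 being lower in the MKO pool (2.995 and 1.754). The part of free hepatocyte RNA in the ratios was not tested.

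**Figure D2:**
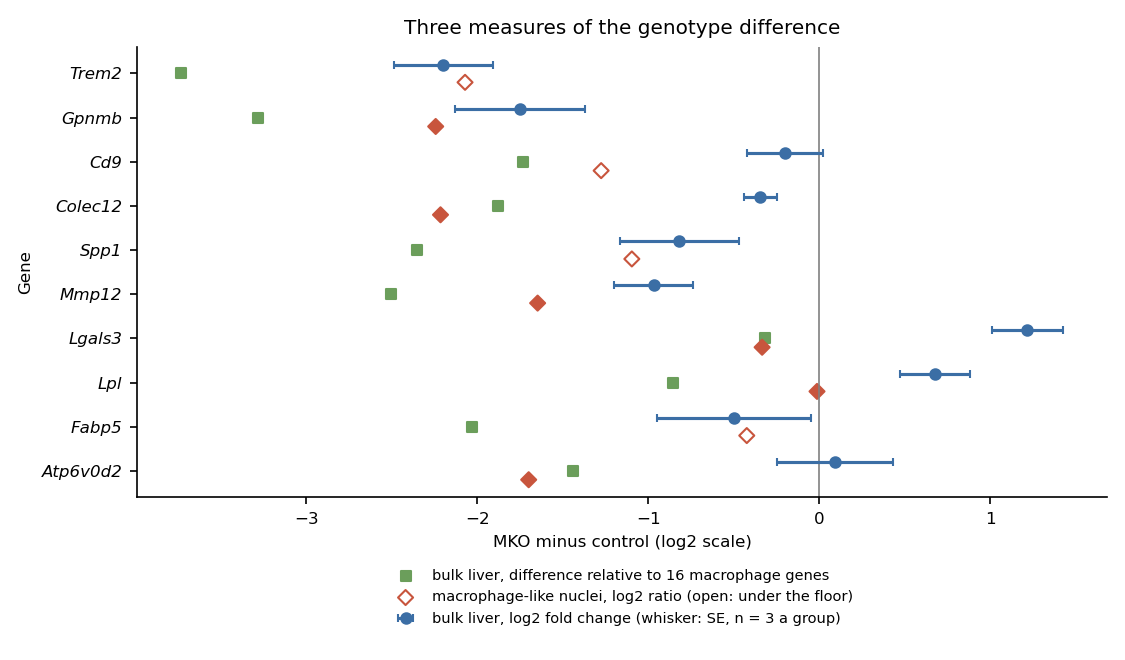
The MKO minus control difference on the log2 scale (horizontal axis) of the 10 genes (vertical axis): circles are bulk log2 fold changes with SE (n = 3 a group), squares bulk differences relative to 16 macrophage genes, and diamonds log2 ratios in macrophage-like nuclei from 1 pool a genotype, open where the gene is under the planned floor. Trem2 and Gpnmb are at -1.75 or less in all 3 measures, and Lgals3 is at 1.22 in bulk and at -0.32 and -0.33 in the other measures.

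Across the 13 clusters the genes fell into those read mainly in macrophage-like nuclei and those with other main sources. In the control pool 7 of the 10 had their highest value in the macrophage-like cluster, and 6 in the MKO pool. Of the summed level over the control clusters that cluster held 95.2% for Mmp12, 82.0% for Atp6v0d2, 75.4% for Gpnmb, 74.6% for Trem2, 64.4% for Lgals3, 54.0% for Lpl and 31.7% for Fabp5. Each cluster counts once in these shares, whatever its number of nuclei. Outside it Trem2 was highest in the dividing-like cluster 10, with 0.196 in the control pool, and was listed there at 0 in the MKO pool. Gpnmb stood there at 1.26 and 0.0856. Both genes stayed under the planned floor of that cluster (2.01), and Trem2 was also under its median detected level (0.317). That cluster also showed 11 of 17 macrophage markers at 2-fold or more above the mean of the others.

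Spp1, Cd9 and Colec12 had other main sources. Spp1 reached 36.4 in bile duct-like nuclei (cluster 6) of the control pool and 58.6 in those of the MKO pool, and the macrophage-like cluster held 2.57% of its summed control level. Bile duct-like and plasmacytoid dendritic-like nuclei had the higher Spp1 value in the MKO pool. In each of the other 11 of 13 clusters it was lower there, T/NK-like and hepatocyte-like nuclei included. Spp1 reached the planned floor of a cluster only in bile duct-like nuclei. In the hepatocyte-like cluster 0 it stood at 0.118 and 0.0633. Cd9 was highest in mesothelial-like nuclei of the control pool (2.05, with 1.07 in their MKO counterparts) and in vascular endothelial-like nuclei of the MKO pool (4.53, and 1.94 in the control pool). Colec12 was highest in the hepatocyte-like cluster 0, at 4.94 and 3.71, and was lower in the MKO pool in 10 of 13 clusters, with 3.45 and 2.24 in stellate-like nuclei. After macrophage-like nuclei, Lpl was highest in stellate-like nuclei of the control pool (1.10, with 1.04 in their MKO counterparts) and in dividing-like nuclei of the MKO pool (1.57, and 0.533 in the control pool). Fabp5 was highest in sinusoidal endothelial-like nuclei of the MKO pool, at 0.341 against 0.168 in the control pool. These Lpl and Fabp5 levels lay under the planned floors of their clusters.

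**Figure D3:**
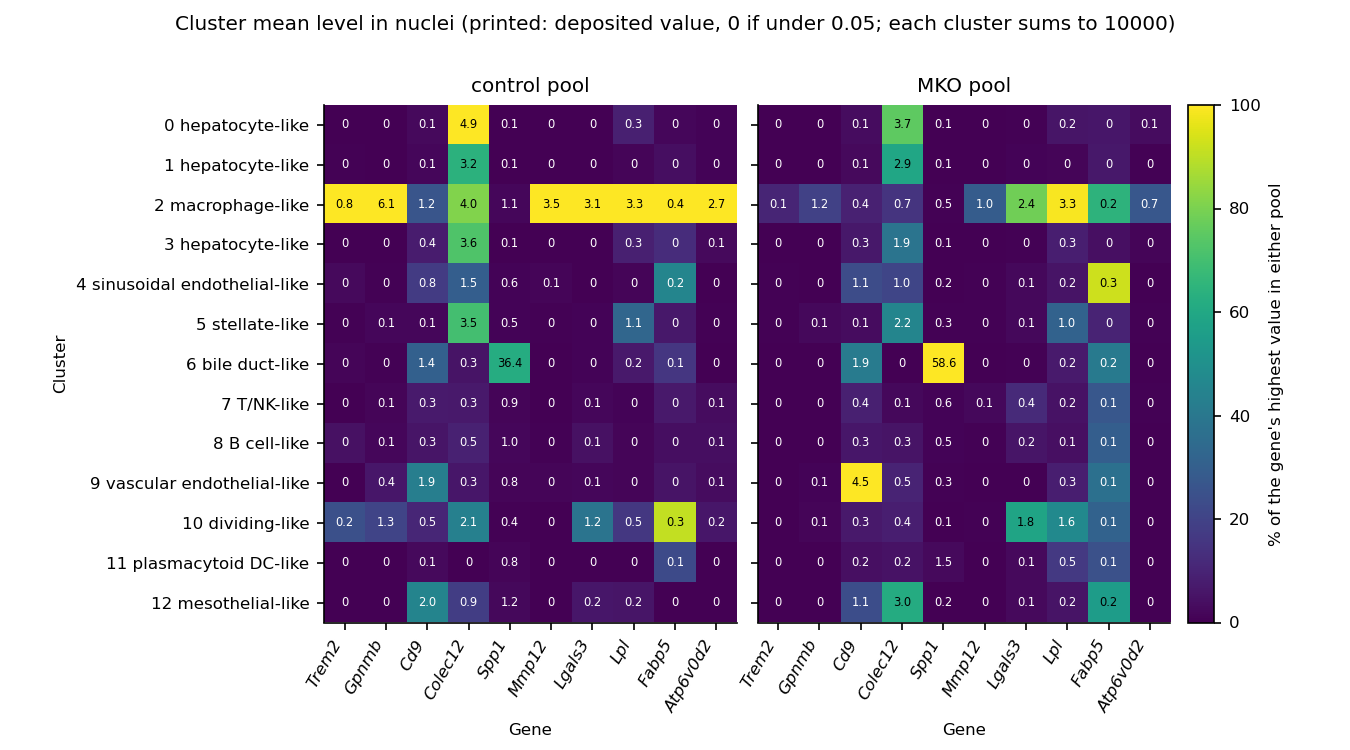
Deposited mean level of the 10 genes (columns) in each of 13 nuclear clusters (rows) of the control and MKO pools; the printed value is the level, on a scale where each cluster sums to 10000, and the colour is the percentage of the gene's highest value in either pool. In cluster 2 Gpnmb reads 6.1 and 1.2 and Lpl 3.3 and 3.3, and Spp1 is highest in bile duct-like nuclei at 36.4 and 58.6.

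The genes most like each of the 10 over the 26 cluster columns were found by Pearson correlation of log2 levels, given as a description without a test. The columns share 2 libraries, and most genes of this kind are high in 1 cluster. Trem2 was most like Gpnmb (r = 0.93), Mmp12 (0.87), Lyz2 (0.82), the amino acid transporter gene Slc7a8 (0.77) and Plekhm2 (0.75). Atp6v0d2 was most like Mmp12 (0.97) and Gpnmb (0.93), and Gpnmb and Mmp12 had Lyz2 among their 3 nearest. Lgals3 was most like Clec4f (0.97), a Kupffer cell receptor, Ksr2 (0.97) and Adgre1 (0.97), which encodes F4/80. Lpl was most like Adgre4 (0.86), Plekhm2 (0.86) and Klra2 (0.83), and Adgre4 and Klra2 were higher in the MKO pool (4.68 to 17.8 and 5.17 to 19.0 in macrophage-like nuclei). Spp1 was most like Kcnma1, Gm609 and Anxa13 (0.93 to 0.94), all at 0.0132 or less in macrophage-like nuclei. The nearest genes of Cd9 were Samd12, Adgrg6 and Kitl (0.82 to 0.83), those of Colec12 Mtus1, Lrp1 and Thrb (0.75 to 0.78), and those of Fabp5 Tbxas1, Cacna1a and Mrc1 (0.80 to 0.83).

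Transcripts of the adaptor and kinases that TREM2 signals through rose in bulk liver. Of 14 measured genes of TREM2 ligands, shedding and signalling 9 rose and 0 fell by limma, where 2.96% of all genes rose, with a median log2 fold change of 1.34. Syk, the kinase, rose from 146 ± 38.7 to 580 ± 14.6 (SD, n = 3 each; log2 fold change 2.01, limma adjusted p = 0.0031). Tyrobp, the adaptor, had a log2 fold change of 1.71 (limma adjusted p = 0.0174), Vav1 one of 1.39 (0.00508), Pik3cd one of 1.58 (0.0073) and Inpp5d, a phosphatase that damps the pathway, one of 1.21 (0.0073). Apoe, a ligand, stood at -0.06 and the sheddases Adam10 and Adam17 at 0.16 and 0.28, none of them called. These adaptors and kinases serve many immune receptors. In macrophage-like nuclei the list went both ways, with a median log2 ratio of 0.0036 over the 10 genes that reached the floor. These ran from -0.40 (Inpp5d) to 1.14 (Tyrobp). There Tyrobp was at 1.92 and 4.41 and Syk at 5.67 and 9.07 in the control and MKO pools, while Inpp5d was at 7.90 and 5.97, Pik3cd at 3.13 and 2.92 and Vav1 at 1.90 and 1.81. Of 3 measured relatives of Trem2, Treml4 rose from 74.4 ± 42.1 to 365 ± 82.5 (SD, n = 3 each; log2 fold change 2.43, limma adjusted p = 0.0132), and Trem1 (0.91) and Treml2 (0.70) were not called.

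Other genes of the lipid-associated state did not move together. Of 24 measured, 3 rose and 0 fell by limma (median log2 fold change 0.06): Itgax, which encodes CD11c, by 1.44 (limma adjusted p = 0.00899), Cd68 by 1.28 (0.0109) and Msr1, a scavenger receptor, by 1.08 (0.0459). In macrophage-like nuclei 14 of 25 reached the floor with a median log2 ratio of -0.27. There Msr1 stood at 7.08 and 4.30 and Plin2, the coat protein of lipid droplets, at 3.52 and 3.78 in the control and MKO pools. Plin2 was picked after its values were seen.

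The families of the individual genes were mostly level in bulk liver. Of 17 other genes of the proton pump limma, edgeR and DESeq2 called 0, 1 had an unadjusted p under 0.05, and the median log2 fold change was -0.08. Atp6v0c, the most abundant of them, stood at -0.05. Atp6v0d1, the widely expressed relative of Atp6v0d2, stood at -0.25 in bulk liver and at 1.73 and 1.27 in macrophage-like nuclei, and was picked because of that relation after its values were seen. In those nuclei the 7 other pump genes that reached the floor had a median log2 ratio of -0.40. Their extremes were Atp6v0a1, at 3.15 and 1.04 in the control and MKO pools (-1.47), and Atp6v0b, at 3.10 and 4.56 (0.54). Of 5 other galectin genes (median 0.20) and 12 partners of LPL (median -0.18) there were 0 calls by any of the 3 tools and 0 had an unadjusted p under 0.05, and their most abundant genes Lgals9 (0.02) and Apoa5 (0.08) were near 0. Of 10 other matrix metalloproteases and their inhibitors (median 0.26) there were 0 calls by any of the 3 tools and 2 had an unadjusted p under 0.05. Of 4 other fatty acid binding proteins limma and edgeR called 0 and DESeq2 1, with 1 at an unadjusted p under 0.05, and Fabp1, the liver form, stood at -0.10.

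A few genes of the remaining lists rose, where 2.96% of all genes did. Of 12 other tetraspanins Cd53 (log2 fold change 1.88, limma adjusted p = 0.00429) and Cd37 (1.05, 0.0208) rose, both known from leukocytes. Of 14 other scavenger receptors Mrc1 (1.14, 0.0131) and Msr1 rose, and of 9 receptors of osteopontin Cd44 (1.36, 0.028) and Itga9 (1.02, 0.0472) rose, with 0 falling in these lists. Of 17 regulators of macrophage and lipid genes Spi1, which encodes PU.1, rose by 1.98 (limma adjusted p = 0.00502) and the cholesterol exporter Abcg1 by 1.05 (0.0209), and 0 fell. Mitf, a factor known to drive Gpnmb and Atp6v0d2 in other cells, was at 0.10 in bulk liver, not called, and at 12.2 and 5.98 in macrophage-like nuclei of the control and MKO pools. Pparg was at 3.71 and 10.4 there. Mitf and Pparg were picked after their values were seen.

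**Figure D4:**
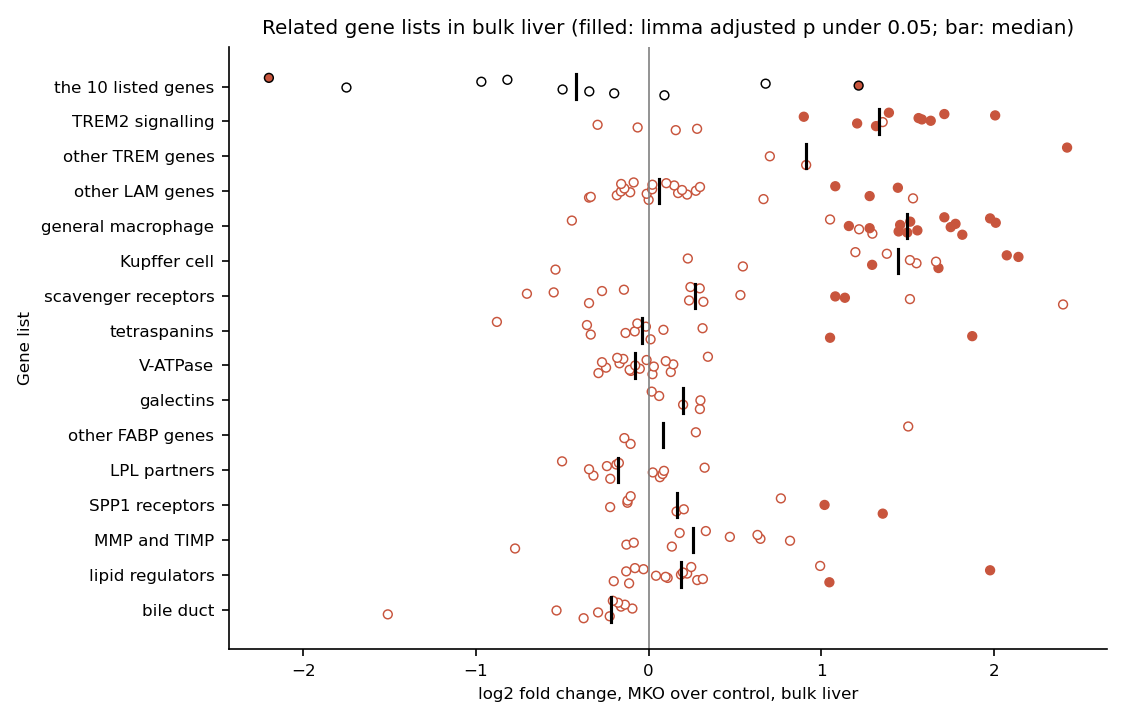
Bulk log2 fold changes of MKO over control libraries (horizontal axis) for the 10 genes and for 15 related lists (vertical axis); each point is a gene, filled where the limma adjusted p is under 0.05, and the bar is the list's median. The 10 genes spread from -2.20 to 1.22, TREM2 signalling has a median of 1.34 and the proton pump genes lie around -0.08.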

How the data were processed

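Mouse liver was measured in 3 control and 3 Tgfbr1 MKO bulk libraries and in 1 pool of nuclei a genotype. The submitters' processing notes list Cell Ranger and Seurat 4.0.1, STAR, RSEM 1.3.3, FastQC and DESeq2, with mm10. The sources used here give no roles, settings or filters for them. For bulk liver the authors deposited a signal, gene counts over 1 size factor per library. They were whole multiples of what 1 read is worth (0.963 to 1.22) for 100% of values within 0.01, so whole reads were recovered. The authors' deposited table also holds log2 fold changes and p-values. For nuclei the authors deposited signal values that average each gene over a cluster of 1 genotype and sum to 10000 in each of 26 columns, of unknown depth.

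The main test was limma-trend (limma 3.58.1, R 4.3.3) on log2(value + 1), which understates changes of low genes, with genotype as the only term, over genes with a mean of at least 1 (34 left out). Recovered reads were tested with edgeR 4.0.16 (485 genes called) and DESeq2 1.42.0 (684 called). Pseudocounts of 0.5 and 4, other filters, TMM scaling, the replicate number as a block and leaving out libraries were tried. The labels do not say whether libraries stem from separate mice, so p-values reflect only the spread among these samples, which may be technical. No libraries of a group agreed within sampling noise (28.1 to 73.1 for chi-square over its degrees of freedom).

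Clusters of nuclei were called after a cell type by 2 conditions. At least 3 of its markers stood 2-fold or more above the mean of the other clusters, and the leading genes did not go against it. The members and lists were chosen with earlier results of these data known. By rule the text names the 10 genes, up to 4 called genes of a list with the smallest p (or the most abundant gene where none was called), and the 3 genes most like each of the 10 (5 for Trem2). Others are named as context.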

Additional observations from a re-analysis of the deposited data

Results flagged for a closer look

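In 3 cases one of the 10 genes differed 1.5-fold or more in opposite directions between macrophage-like nuclei and another cluster where it reached the planned floor. Spp1 had a log2 ratio of -1.10 in macrophage-like and 0.69 in bile duct-like nuclei. Cd9 had -1.28 in macrophage-like and 1.15 in vascular endothelial-like nuclei. Colec12 had -2.22 in macrophage-like and 1.57 in mesothelial-like nuclei. Each ratio compares 1 pool with 1 pool, and the difference between clusters was not tested.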

How the results depend on the processing

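Trem2 stayed called and lower under every bulk alternative run, with log2 fold changes from -2.43 to -2.08 when 1 library was left out. Genes called lower among the 10 were 1 as reported, 2 with a pseudocount of 4, TMM scaling or the replicate block, 3 with DESeq2, and 1 to 2 with 1 library left out; Gpnmb was the second in the first 3 settings and Mmp12 the third. Genes called higher were 1, and 0 to 1 with 1 library left out. Over all genes 13 were lower, 50 with DESeq2 and 5 to 31 with 1 library left out, and 452 were higher, 175 to 410 with 1 left out. Without both control 3 and MKO 1, chosen after seeing the data, 39 genes and 2 of the 10 were lower, and Cd9 (0.16) and Atp6v0d2 (-0.37) changed sign. With 1 library left out Fabp5 ran from -0.92 to 0.0672, Cd9 from -0.37 to 0.03 and Atp6v0d2 from -0.31 to 0.32. The cause of these shifts was not tested. Replicate numbers did not pair the libraries (correlations of deviations 0.06, -0.03 and -0.11 for numbers 1 to 3). With the replicate block Gpnmb had a limma adjusted p of 0.0101, and no other call among the 10 changed. In macrophage-like nuclei Trem2 had a log2 ratio of -0.93 with a pseudocount of 1/2 of the planned floor and -2.91 with 1/50, by construction, and Lpl moved to 0.0532 when ratios were centred on the median gene. The 6 libraries limit the bulk precision, and cluster means come with no depth.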
